A study of Mus musculus with 4 samples.

Results

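The genes described here encode enzymes and partners of fatty acid oxidation and ketone body formation, measured in RNA of mouse liver mitochondria. Of 38 gene symbols on the list, 33 had a row in the deposited table of 37819 features, and the other 5 (Cpt1a, Acsl1, Acaa1b, Ppara and Pex11a) are not analysed here. By known enzyme location, 19 of the 33 were taken as mitochondrial, 8 as peroxisomal, 2 as ketogenic and 2 as cytosolic thioesterases. The other 2 were Vnn1, a target of the nuclear receptor PPAR-alpha, and Fgf21, which encodes a hormone. The choice used gene names and not measured values, but earlier results of these data were known when it was made.

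The study set liver mitochondrial RNA of 3 mouse models of metabolic disease beside that of wild-type mice, with non-coding RNA as its stated interest. Each group was 1 library of total RNA, sequenced after ribosomal RNA depletion, from mice of postnatal week 7. The ob group had the genotype B6.Cg-Lepob/J, a leptin mutation. The NASH group was wild-type with non-alcoholic steatohepatitis, induced in a way the sources do not give. The db group had the genotype BKS.Cg-Dock7m+/+Leprdb/J, a leptin receptor mutation, but its strain label names C57BL/6J. The reference was wild-type C57BL/6J. By its genotype label, the db group differs from wild-type in strain background as well as in the receptor. The number of animals in a library and the isolation of mitochondria are also not given there. Because each group is a single library, differences have no replicate check and no p-value is given. Ranges in parentheses are exact 95% intervals for counting error alone, with TMM scaling unless another is named, and reads that lack molecular identifiers need not be independent molecules. In bulk RNA, fewer cells of a type and less RNA per cell cannot be told apart. The genes described here and the hepatocyte markers lie on nuclear chromosomes, and how much RNA from outside mitochondria each preparation held was not measured. A difference in level in the liver and a difference in the purity of the preparation therefore cannot be told apart either.

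Fatty acids are first joined to coenzyme A, and the long ones are passed into the mitochondrion as carnitine esters. Inside, the matrix enzymes shorten them by repeated rounds of dehydrogenation, hydration, a further dehydrogenation and thiolysis, and electron transfer flavoprotein carries the electrons on to the respiratory chain. Peroxisomes run a parallel spiral for very long and branched chains. In the liver the acetyl-CoA so formed can be turned into ketone bodies for export. PPAR-alpha is the main transcriptional activator of these genes in fasting liver.

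Total counts ran from 529815 to 1005915 per library, and these genes took 2251 counts in ob, 213 in NASH, 2942 in db and 377 in wild-type. As shares of the library these were 0.225% in ob, 0.0402% in NASH, 0.292% in db and 0.0600% in wild-type. At least 10 counts in at least 1 library were reached by 28 of the 33 genes, and the other 5 (Eci1, Acot1, Acot2, Acot3 and Fgf21) had at most 4 counts anywhere. Levels are given as counts or as CPM, counts per 1000000 of the library after TMM scaling (a trimmed-mean scaling between libraries). A count of 3, taken as the detection floor, stood for 1.99 CPM in ob, 6.15 in NASH, 2.84 in db and 6.95 in wild-type. Of 9 hepatocyte marker genes, all 9 were detected in every library. Their summed level was 1.47-fold lower in ob, 9.43-fold lower in NASH and 2.19-fold higher in db than in wild-type. Alb held most of these counts, and in ob the markers went both ways, from Serpina1c at a ratio of 0.254 to Cps1 at 3.47. In NASH each marker was lower, from Fga at a ratio of 0.0446 to Cps1 at 0.351. In db they ran from Fgb at 0.935 to Cps1 at 7.85. The 18 macrophage markers together were 3.84-fold higher in NASH (3.30 to 4.48) and the sum of 13 stellate cell and fibrosis markers 2.18-fold (1.79 to 2.67). The 13 did not move together in NASH: Col1a1 was at a ratio of 9.86 and Vim at 9.07, but Rgs5 at 0.379 and Lrat at 0.295. Nuclear-retained RNAs together were 39.7-fold higher (32.7 to 48.7) and erythroid markers 10.8-fold higher (8.54 to 13.8) in ob. Of the 14277 nuclear-retained counts in ob, Neat1 held 7450 and Malat1 6797, while Meg3 went the other way, at a ratio of 0.272. The 12 endothelial markers were at a ratio of 1.47 in ob (1.13 to 1.95), 0.871 in NASH (0.607 to 1.25) and 2.01 in db (1.54 to 2.67). Cholangiocyte markers had 22 counts in ob, 18 in NASH, 11 in db and 3 in wild-type, with 4 of 7 at 0 in every library, and 5 adipocyte markers had at most 3 counts in a library.

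**Figure D1:**
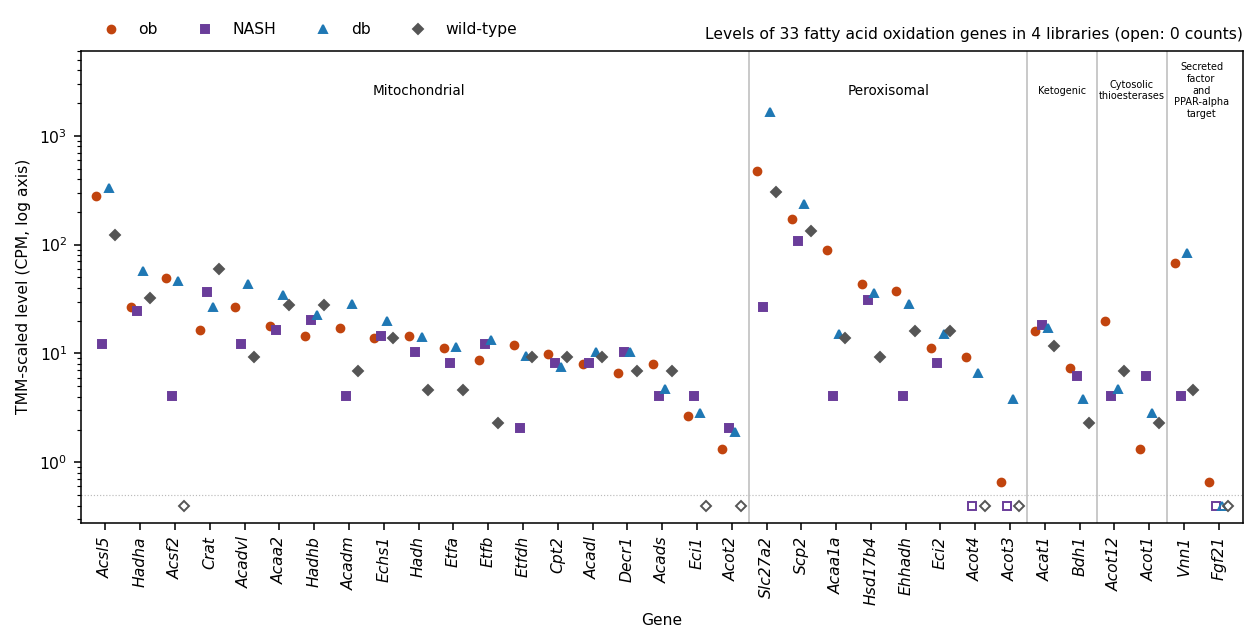
Level of each of the 33 genes in each library, in TMM-scaled CPM on a log axis, grouped by enzyme location and ordered by total counts within a group. Open symbols under the dotted line mark 0 counts. Slc27a2 reached 1637 CPM in db and 26.7 CPM in NASH, while most mitochondrial enzymes lay between 2 and 60 CPM in all 4 libraries.

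In ob against wild-type, several genes of peroxisomal oxidation and fatty acid activation were higher, and most mitochondrial matrix enzymes differed by less than their counting error. Acaa1a, the peroxisomal thiolase gene, was 6.40-fold higher (2.86 to 17.8), and Hsd17b4, the gene of the peroxisomal D-bifunctional enzyme, 4.73-fold (1.76 to 17.9). Acsl5, a long-chain acyl-CoA synthetase gene, was 2.26-fold higher (1.70 to 3.07). Crat, which encodes the carnitine acetyltransferase, was 3.63-fold lower (2.01 to 6.55), and 1.66-fold lower with plain library totals, where the interval of the ratio (0.334 to 1.09) included equality. Of the 28 genes with enough counts, 14 were higher by 2-fold or more, as were 34.5% of all 5347 features tested, and 1 was lower, as were 15.5%. For 7 of the 14, and for Crat, the counting interval excluded equality, as it did with a 2-fold increase for 14.9% of all features and with a decrease for 11.9%. Since 21 of the 28 had at least 10 counts in ob and fewer in wild-type, depth moves with these counts, and its part was not tested. The median log2 difference was 0.89 over the 28 genes and 0.41 over all features tested. With plain library totals in place of TMM scaling, 61.6% of all features were higher and 4.66% lower, and 21 and 0 of the 28 genes. With protein-coding totals the shares were 55.1% and 6.66%, beside 18 and 0 of the 28. The interval changed its side of equality under at least 1 of the other 4 scalings for 10 genes in ob, among them Acadvl, Ehhadh and Crat. The sums of nuclear-retained, erythroid and endothelial RNAs were also higher in ob, and their part in these values was not tested.

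In NASH against wild-type, 2 of the 3 genes with most counts were about 10-fold lower, and most others had intervals that included equality. Slc27a2, which encodes a fatty acid transporter and very-long-chain acyl-CoA synthetase, was 11.4-fold lower (6.43 to 21.96), and Acsl5 was 9.99-fold lower (4.30 to 28.4). Hsd17b4 was 3.32-fold higher (1.06 to 13.7). Of the 28 genes, 4 were at least 2-fold higher, where 20.3% of all features were, and 5 were lower, where 31.8% were. The interval excluded equality for Hsd17b4, Slc27a2 and Acsl5, against 4.66% of all features with an increase and 14.2% with a decrease. The median log2 difference was -0.22 over the 28 genes and -0.14 over all features. The background split was 27.3% higher and 25.8% lower with plain totals, beside 7 and 5 of the 28 genes, and 32.3% and 23.4% with protein-coding totals, beside 8 and 5. Summed hepatocyte markers were lower, and the sums of macrophage and of stellate cell and fibrosis markers higher, in the same library. Their part in these values was not tested.

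In db against wild-type, Slc27a2 was 5.39-fold higher (4.51 to 6.49), and 4 acyl-CoA handling genes of the mitochondrion were higher with it, Acsf2 by at least 6.67-fold. Acadvl and Acadm, the dehydrogenase genes for very long and medium chains, were 4.70-fold (1.72 to 17.97) and 4.08-fold (1.27 to 20.9) higher, and Acsl5 was 2.71-fold higher (2.02 to 3.68). Crat was 2.27-fold lower (1.28 to 4.02), but 1.49-fold lower with plain totals and 1.60-fold with the submitters' scaling, where the interval included equality. Of the 28 genes, 11 were at least 2-fold higher, where 28.8% of all features were, and 1 was lower, where 21.5% were. The interval excluded equality for 7 of the 11, against 14.8% of all features with an increase, and for Crat, against 10.7% with a decrease. Of the 28, 16 had at least 10 counts in db and fewer in wild-type, and the part of depth was not tested. The median log2 difference was 0.65 over the 28 genes and 0.11 over all features. The background split was 39.2% higher and 11.8% lower with plain totals, beside 17 and 0 of the 28 genes, and 39.3% and 13.1% with the submitters' scaling, beside 14 and 0. Summed hepatocyte markers were 2.19-fold, endothelial markers 2.01-fold and nuclear-retained RNAs 1.52-fold higher in the same library, and erythroid markers 4.30-fold lower. Among the nuclear-retained RNAs, Neat1 was at a ratio of 6.36 in db, Malat1 at 1.42 and Meg3 at 0.306. The part of these marker lists in the values was not tested.

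In db against ob, both leptin-signalling mutants, Slc27a2 was 3.44-fold higher (3.15 to 3.76) and Hadha, the alpha subunit gene of the mitochondrial trifunctional protein, 2.14-fold higher (1.41 to 3.27). Acaa1a was 5.88-fold lower (3.49 to 10.6), and Acot12, a gene of cytosolic acetyl-CoA hydrolysis, 4.21-fold lower (1.62 to 13.9). These 2 and 2 of 28 genes compare with 19.6% of all features at least 2-fold higher and 30.2% lower. For all 4 the interval excluded equality, as it did for 17.1% of all features with an increase and 22.0% with a decrease. The median log2 difference was 0.29 over the 28 genes and -0.17 over all features. The background split was 7.95% higher and 42.5% lower with plain totals, beside 1 and 4 of the 28 genes, and 3.42% and 51.0% with protein-coding totals, beside 0 and 10. With DESeq2 size factors it was 25.9% and 25.8%, beside 3 and 2. Over the 5 scalings Slc27a2 ran from 1.78-fold to 4.14-fold higher in db than in ob and Hadha from 1.11-fold (0.729 to 1.69) to 2.57-fold (1.69 to 3.93), and Acaa1a was lower in each. Hepatocyte markers stood at 128769.6 CPM in db and 40169.2 in ob. Nuclear-retained RNAs were at 363.5 CPM in db and 9482 in ob, and erythroid markers at 38.8 and 1801. By their genotype labels db and ob also differ in strain background, BKS and B6. The part of these differences in the values was not tested. The 3 comparisons with wild-type share that library, so their values are given side by side and no overlap is drawn from them.

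**Figure D2:**
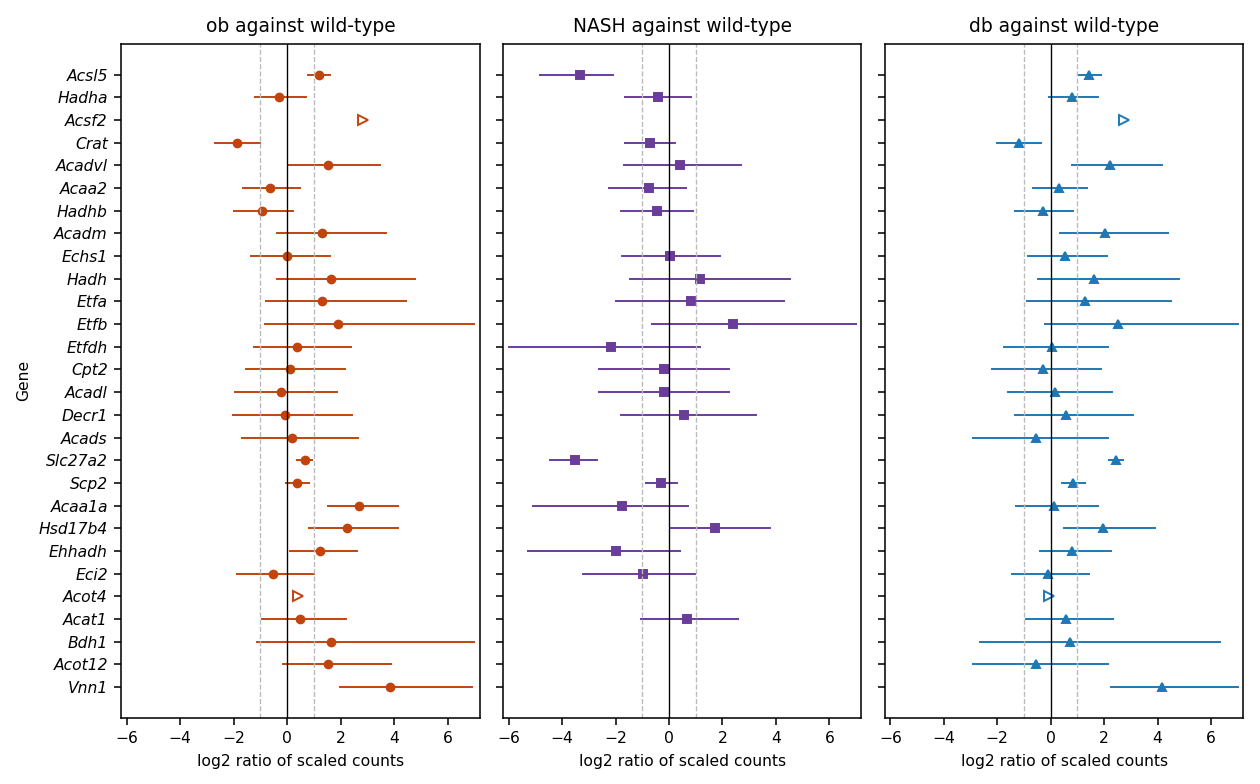
Ratio of scaled counts on a log2 axis for the 28 genes with at least 10 counts in 1 library, in ob, NASH and db, each against wild-type. Lines are exact 95% counting intervals, some of which run past the axis, open triangles are lower bounds against 0 counts in wild-type, dashed lines mark 2-fold, and genes with at most 3 counts in both libraries have no symbol. Most intervals of matrix enzymes cross 0, while those of Slc27a2 and Acsl5 in NASH lie below -2.

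The activating enzymes carried the most counts. Slc27a2 (ENSMUSG00000027359, mm10 chromosome 2, 126552407 to 126588243, plus strand) had 716 counts in ob, 13 in NASH, 1729 in db and 131 in wild-type. In scaled levels these were 475.5 CPM in ob, 26.7 in NASH, 1637 in db and 303.6 in wild-type. The order was db, ob, wild-type and NASH, and the intervals of neighbouring ratios, among them 1.57-fold for ob against wild-type (1.30 to 1.90), excluded equality. The Slc27a2 product sits in membranes of peroxisomes and the endoplasmic reticulum. Acsl5 (chromosome 19, 55253369 to 55296627, plus strand) had 418 counts in ob, 6 in NASH, 351 in db and 53 in wild-type. Its product is placed at the outer mitochondrial membrane and the endoplasmic reticulum. Scaled, Acsl5 stood at 277.6 CPM in ob, 12.3 in NASH, 332.3 in db and 122.8 in wild-type, so that NASH was lowest. Acsf2, a gene of medium-chain acyl-CoA synthesis in mitochondria, had 74 counts in ob, 2 in NASH, 49 in db and 0 in wild-type. It was at least 7.07-fold higher in ob and at least 6.67-fold higher in db than the floor of 3 counts in wild-type. Of its 50-base words, 33.3% also occur in transcripts of other genes, mainly the pseudogene Gm5540, so its counts are uncertain.

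Per kilobase of exon, Slc27a2 was the most abundant of the 33 genes in ob, db and wild-type, at 126.7, 436 and 80.9 CPM per kilobase. In NASH that place was held by Scp2, at 31.2 CPM per kilobase, with Slc27a2 at 7.10 and Acsl5 at 2.53. Scp2 encodes sterol carrier protein 2 and a peroxisomal thiolase that contains it.

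The carnitine enzymes had fewer counts. Cpt2, the gene of the inner-membrane carnitine palmitoyltransferase, had 15 counts in ob, 4 in NASH, 8 in db and 4 in wild-type. Its scaled levels lay between 7.57 and 9.96 CPM, closer together than their counting error. Crat had 25 counts in ob, 18 in NASH, 28 in db and 26 in wild-type. After scaling it stood at 16.6 CPM in ob, 26.5 in db and 36.9 in NASH, against 60.3 CPM in wild-type, the highest. The interval for NASH against wild-type, 1.63-fold lower (0.861 to 3.16), included equality.

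The matrix spiral and electron transfer were represented by 14 genes, which together had 284 counts in ob, 74 in NASH, 298 in db and 70 in wild-type. Their summed level was 1.16-fold that of wild-type in ob (0.892 to 1.53), 0.935-fold in NASH (0.665 to 1.32) and 1.74-fold in db (1.34 to 2.29). Only the db interval excluded equality with TMM scaling, and with plain totals the ob ratio was 2.55 (1.95 to 3.36). The ob ratio was 2.1 with protein-coding totals and 1.51 with the submitters' scaling, where the intervals also excluded equality. It was 1.07 with DESeq2 size factors, where the interval included equality. In NASH the ratio was 1.41 with protein-coding totals, where the interval lay above equality. The NASH interval included equality under the other scalings. Among the first dehydrogenases, Acadvl had 40 counts in ob, 6 in NASH, 46 in db and 4 in wild-type, and 26.9% of its 50-base words occur in the overlapping gene Dvl2. Acadm had 26 counts in ob, 2 in NASH, 30 in db and 3 in wild-type, which put the db and ob libraries above both others. The ob ratio of Acadvl, 2.87-fold (1.04 to 11.03), excluded equality, whereas that of Acadm, 2.48-fold (0.761 to 12.8), did not. With DESeq2 size factors the Acadvl interval included equality, and with plain totals that of Acadm began at 1.67. Acadl and Acads, for long and short chains, had 12 counts each in ob, 4 and 2 in NASH, 11 and 5 in db and 4 and 3 in wild-type, with every interval against wild-type that could be computed including equality.

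The trifunctional protein genes Hadha and Hadhb lie side by side on chromosome 5 on opposite strands. Hadha had 40 counts in ob, 12 in NASH, 60 in db and 14 in wild-type, and Hadhb had 22 in ob, 10 in NASH, 24 in db and 12 in wild-type. Against wild-type, Hadha was at a ratio of 0.819 in ob (0.436 to 1.63), 0.758 in NASH (0.3204 to 1.77) and 1.75 in db (0.967 to 3.39). For Hadhb the ratios were 0.525 in ob (0.249 to 1.17), 0.737 in NASH (0.285 to 1.86) and 0.817 in db (0.393 to 1.79). With TMM scaling both subunit genes had intervals that included equality in all 3 models, but Hadha in db was at 1.93 with DESeq2 size factors (1.06 to 3.74) and 2.68 with plain totals (1.48 to 5.18). Hadha changed direction with the scaling in ob (0.751 to 1.79) and in NASH (0.758 to 1.15). Acaa2, the mitochondrial thiolase gene, had 27 counts in ob, 8 in NASH, 36 in db and 12 in wild-type, again with no interval against wild-type that excluded equality. In db against ob it was 1.90-fold higher (1.12 to 3.25), and at a ratio of 0.983 with protein-coding totals.

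Hadh, the short-chain hydroxyacyl-CoA dehydrogenase gene, had 22 counts in ob, 5 in NASH, 15 in db and 2 in wild-type. Echs1, the enoyl-CoA hydratase gene, had 21 counts in ob, 7 in NASH, 21 in db and 6 in wild-type. The auxiliary genes for unsaturated chains were Decr1, with 10 counts in ob, 5 in NASH, 11 in db and 3 in wild-type, and Eci1, with 4, 2, 3 and 0 in the same order. None of these ratios to wild-type had an interval that excluded equality with TMM scaling, while with plain totals Hadh was 6.90-fold higher in ob (1.70 to 60.6) and 4.68-fold in db (1.09 to 42.2). For electron transfer, Etfa, Etfb and Etfdh had 17, 13 and 18 counts in ob, 4, 6 and 1 in NASH, 12, 14 and 10 in db, and 2, 1 and 4 in wild-type. Their intervals included equality with TMM scaling, and with plain totals those of Etfa in ob, from 1.27, and of Etfb in ob and db, from 1.23 and 1.33, did not. Etfb is uncertain as well, since 44.8% of its 50-base words occur in other transcripts.

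Among the peroxisomal genes, the thiolase gene was high in ob. Acaa1a (chromosome 9, 119339676 to 119350299, plus strand) had 134 counts in ob, 2 in NASH, 16 in db and 6 in wild-type, so that ob stood apart from the other 3. Scaled, it was 89.0 CPM in ob, 4.10 in NASH, 15.1 in db and 13.9 in wild-type, with a db ratio of 1.09 (0.405 to 3.399). Reads of Acaa1a can be shared with its close copy Acaa1b, and 17.1% of its 50-base words occur in transcripts of other genes. Ehhadh, the gene of the peroxisomal L-bifunctional enzyme, had 57 counts in ob, 2 in NASH, 30 in db and 7 in wild-type. It was 2.33-fold higher in ob (1.06 to 6.06), and the db ratio of 1.75 (0.753 to 4.72) included equality. The ob interval began at 0.974 with DESeq2 size factors, and the db interval at 1.15 with plain totals. Hsd17b4 had 66 counts in ob, 15 in NASH, 38 in db and 4 in wild-type, and after scaling 43.8 CPM in ob, 36.0 in db and 30.8 in NASH, against 9.27 CPM in wild-type, the lowest. In db it was 3.88-fold higher (1.40 to 15.0).

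Scp2 differed less between libraries than Slc27a2 or Acsl5. It had 259 counts in ob, 53 in NASH, 248 in db and 57 in wild-type, at 172.0, 108.7, 234.8 and 132.1 CPM in that order. The db ratio of 1.78 (1.33 to 2.41) excluded equality, while 1.30 in ob (0.974 to 1.77) and 0.823 in NASH (0.555 to 1.22) did not, and the NASH ratio was above 1, at 1.24, with protein-coding totals. In ob Scp2 reached 2.85 with plain totals (2.13 to 3.87). Of its 50-base words, 29.7% occur in other transcripts, mainly of the pseudogene Scp2-ps2. Eci2, an isomerase gene for unsaturated chains, had 17 counts in ob, 4 in NASH, 16 in db and 7 in wild-type and no interval that excluded equality. Acot4 and Acot3, genes of peroxisomal acyl-CoA thioesterases, had 14 and 1 counts in ob, 7 and 4 in db, and 0 in NASH and in wild-type. For a count of 0 the level could still be as high as the floor, and Acot4 in ob was at least 1.34-fold above it.

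Ketogenic genes were low throughout. Acat1, the gene of the acetoacetyl-CoA thiolase, had 24 counts in ob, 9 in NASH, 18 in db and 5 in wild-type. Bdh1, which encodes the enzyme that reduces acetoacetate to hydroxybutyrate, had 11 counts in ob, 3 in NASH, 4 in db and 1 in wild-type. Their summed level was 1.67-fold that of wild-type in ob (0.696 to 4.86), 1.77-fold in NASH (0.614 to 5.75) and 1.498-fold in db (0.589 to 4.51), and at this depth no difference was detectable with TMM scaling. In ob the sum was 3.66-fold higher with plain totals (1.52 to 10.7) and 3.01-fold with protein-coding totals (1.25 to 8.76).

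The cytosolic thioesterase gene Acot12 had 30 counts in ob, 2 in NASH, 5 in db and 3 in wild-type, with ob highest at 19.9 CPM. Its ob ratio against wild-type, 2.87-fold (0.891 to 14.7), included equality, unlike that of db against ob, and was 6.28-fold with plain totals (1.95 to 32.1). Acot1 and Acot2 had 1 to 3 and 0 to 2 counts. Vnn1, the pantetheinase gene, had 101 counts in ob, 2 in NASH, 88 in db and 2 in wild-type. It was 14.5-fold higher in ob (3.90 to 121) and 17.97-fold higher in db (4.83 to 150.7), whereas the ratio of db to ob was 1.24 (0.922 to 1.67) and changed direction with the scaling, between 0.642 and 1.49. Fgf21 had 1 count in ob and 0 in the other 3 libraries.

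Summed over location, and without a filter on low counts, the 19 mitochondrial genes were 1.53-fold higher in ob (1.29 to 1.83), 1.65-fold lower in NASH (1.28 to 2.13) and 1.96-fold higher in db (1.65 to 2.35) than in wild-type. The NASH ratio included equality at 0.813 with plain totals (0.628 to 1.05) and at 0.918 with protein-coding totals (0.709 to 1.18), and the ob ratio reached 3.36 with plain totals. Without Acsl5 the ob ratio was 1.15 (0.919 to 1.44), the NASH ratio 0.876 (0.657 to 1.17) and the db ratio 1.57 (1.26 to 1.98), and with plain totals the ob ratio without it was 2.51 (2.01 to 3.16). The 8 peroxisomal genes were 1.71-fold higher in ob (1.48 to 1.99), 2.69-fold lower in NASH (2.09 to 3.49) and 4.02-fold higher in db (3.49 to 4.66). Without Slc27a2 they were 1.94-fold higher in ob (1.53 to 2.48) and 1.81-fold higher in db (1.42 to 2.33), while the NASH ratio of 0.830 (0.599 to 1.15) included equality. With TMM scaling the NASH decrease of each list therefore rested on 1 gene.

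Scaling between libraries cannot change shares within a library, and these differed too. Peroxisomal genes made up 60.7% of mitochondrial plus peroxisomal counts in ob (58.6 to 62.8), 45.9% in NASH (38.7 to 53.2) and 73.9% in db (72.3 to 75.5), against 58.1% in wild-type (52.8 to 63.2). Crat, Eci2, Scp2 and Slc27a2 were taken as genes of more than 1 location. Without them the share was 25.5% in ob, 17.9% in NASH, 11.8% in db and 11.8% in wild-type. Acsl5, placed above at more than 1 membrane, was kept as mitochondrial there. Without Acsl5 and Slc27a2 it was 57.8% in ob and 48.3% in db, against 44.8% in wild-type. Slc27a2 alone held 31.8% of the counts of the 33 genes in ob (29.9 to 33.8), 6.10% in NASH (3.29 to 10.2) and 58.8% in db (57 to 60.6), against 34.7% in wild-type (29.9 to 39.8). Acsl5 held 18.6% in ob (17 to 20.2), 2.82% in NASH (1.04 to 6.03) and 11.9% in db (10.8 to 13.2), against 14.1% in wild-type (10.7 to 18). Scp2 went the other way in NASH, with 24.9% (19.2 to 31.2) against 15.1% in wild-type (11.7 to 19.1), and held 11.5% in ob and 8.43% in db.

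**Figure D3:**
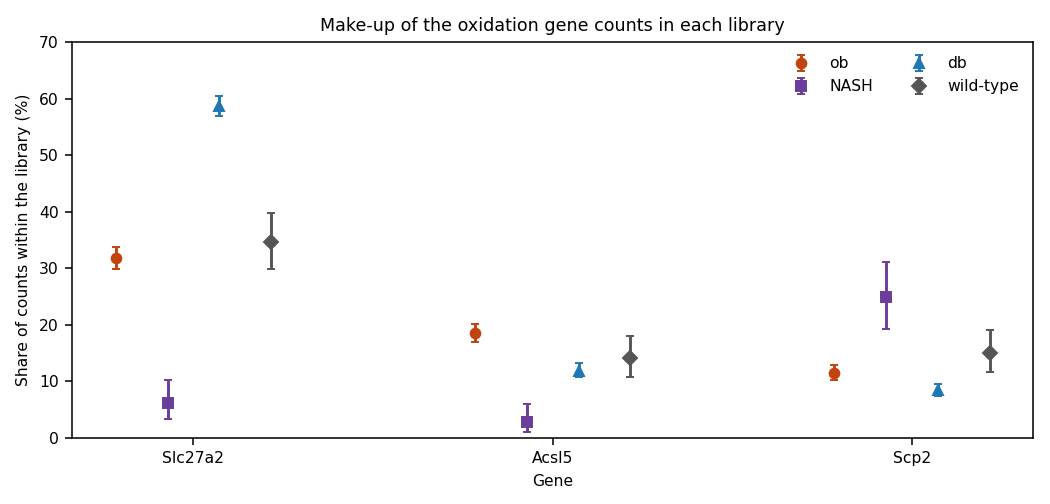
Share of counts within each library, in percent, held by Slc27a2, Acsl5 and Scp2 among all 33 genes, with exact 95% intervals. Slc27a2 held 58.8% in db and 6.10% in NASH, and Acsl5 2.82% in NASH.

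Beside the hepatocyte markers, the genes split in NASH. The markers were 9.43-fold lower in NASH than in wild-type, and Slc27a2 and Acsl5 were lower by 11.4-fold and 9.99-fold. With TMM scaling, Scp2 and the sum of the 14 matrix and electron transfer genes had intervals that included equality. With protein-coding totals that sum was at a ratio of 1.41, and its interval lay above equality. Counts of the 30 genes without Slc27a2, Acsl5 and Scp2, a set chosen after the values were seen, taken relative to the markers' counts in the same library, were 8.65 times as high in NASH as in wild-type. The same ratio was 2.65 in ob and 0.843 in db. Because the markers were 9.43-fold lower in NASH, any feature at an equal scaled level in both libraries would stand at 9.43 there. The scaled sum of the 30 genes was 0.917 of wild-type in NASH (0.719 to 1.17), and the median log2 difference of all features was -0.14. The NASH value is therefore not particular to these genes. Leaving out Slc27a2 and Acsl5, which were lower along with the markers, raises the NASH value by construction. With all 33 genes kept, the ratio to wild-type was 4.71 for NASH, 1.46 for db and 2.51 for ob. The direction for db thus depended on which genes were left out. How the markers and these genes come to differ was not tested.

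**Figure D4:**
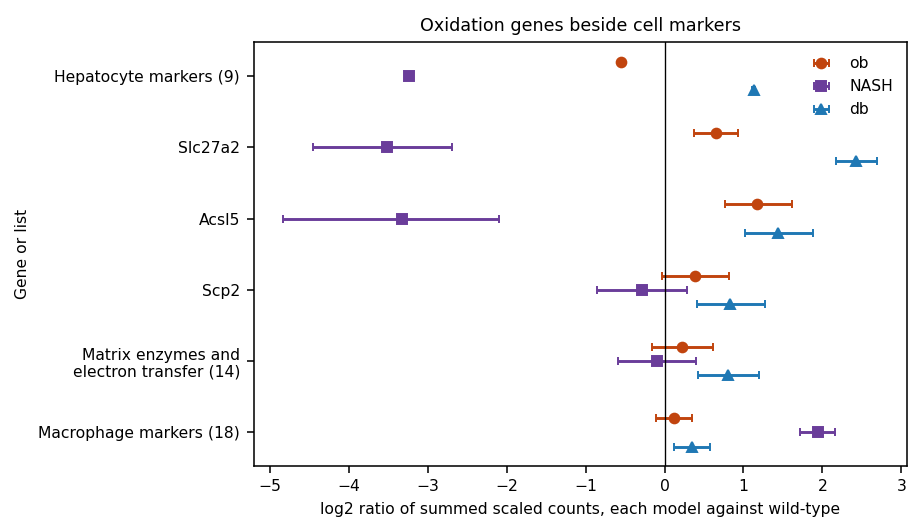
Ratio of summed scaled counts in ob, NASH and db, each against wild-type, on a log2 axis, for hepatocyte markers, single oxidation genes, the matrix gene sum and macrophage markers, with exact 95% counting intervals. In NASH, hepatocyte markers, Slc27a2 and Acsl5 lie far left, at 9.43-fold, 11.4-fold and 9.99-fold lower, Scp2 and the matrix enzymes cross 0, and macrophage markers are 3.84-fold higher.

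Other genes of the same pathways were counted from fixed lists. Over all features the shares higher and lower were 34.5% and 15.5% in ob, 20.3% and 31.8% in NASH, and 28.8% and 21.5% in db. Those with an interval excluding equality were 14.9% and 11.9% in ob, 4.66% and 14.2% in NASH, and 14.8% and 10.7% in db. Of 23 further mitochondrial oxidation genes, 12 passed the count filter, with 8 higher by 2-fold or more and 1 lower in ob, 2 higher and 3 lower in NASH, and 9 higher and 0 lower in db, each against wild-type. The shares higher and lower were 66.7% and 8.33% in ob, 16.7% and 25% in NASH, and 75% and 0% in db. The interval excluded equality for 3 higher and 1 lower in ob, 0 and 1 in NASH, and 6 and 0 in db. Of the 12, 9 in ob and 8 in db had at least 10 counts there and fewer in wild-type. Acsm5, a medium-chain acyl-CoA synthetase gene, had 59 counts in ob, 1 in NASH, 28 in db and 0 in wild-type. Slc22a5, the carnitine transporter gene of the cell membrane, had 18 counts in ob, 1 in NASH, 38 in db and 1 in wild-type, and was 15.5-fold higher in db (2.62 to 629). Acad10 and Acad11, genes of acyl-CoA dehydrogenase family members, were 8.78-fold higher in db (2.29 to 74.8) and 7.02-fold higher in ob (1.84 to 59.6).

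Of 23 further genes listed as peroxisomal, Slc27a4 and Mpv17 among them, 20 passed, and the location of their products was not measured. In ob 9 were higher and 0 lower, in NASH 3 higher and 7 lower, and in db 7 higher and 0 lower. The shares higher and lower were 45% and 0% in ob, 15% and 35% in NASH, and 35% and 0% in db. Intervals excluded equality for 2 of the 9 in ob, 0 of the genes called in NASH and 5 of the 7 in db. Of the 20, 17 in ob and 12 in db had at least 10 counts there and fewer in wild-type. Aldh3a2, a fatty aldehyde dehydrogenase gene, had 112 counts in ob, 6 in NASH, 39 in db and 3 in wild-type and was 10.7-fold higher in ob (3.57 to 52.7). Slc27a4, a fatty acid transport protein gene of the same family as Slc27a2, had 37 counts in ob, 1 in NASH, 57 in db and 1 in wild-type. Catalase (Cat), the enzyme that removes peroxisomal hydrogen peroxide, had 151 counts in ob, 50 in NASH, 63 in db and 44 in wild-type. It was named after its values were seen, and its levels were 100.3 CPM in ob, 102.5 in NASH, 59.6 in db and 102.0 in wild-type, close together except in db.

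Slc16a7, a monocarboxylate transporter gene, had 109 counts in ob, 6 in NASH, 100 in db and 18 in wild-type, and was 2.27-fold higher in db (1.37 to 3.98) and 3.39-fold lower in NASH (1.29 to 10.4). Slc16a1, of the same transporter family, had 74 counts in ob, 2 in NASH, 58 in db and 13 in wild-type and was 7.35-fold lower in NASH (1.66 to 67.1). Of 24 further genes linked to PPAR-alpha, 18 passed, with 5 higher and 2 lower in ob, 2 higher and 10 lower in NASH and 11 higher and 3 lower in db. The shares higher and lower were 27.8% and 11.1% in ob, 11.1% and 55.6% in NASH, and 61.1% and 16.7% in db. Equality was excluded by the interval for 4 higher and 2 lower in ob, 1 and 6 in NASH, and 9 and 1 in db. Of the 18, 9 in ob and 7 in db had at least 10 counts there and fewer in wild-type. Cyp4a10, of a fatty acid omega-hydroxylase family with close copies, had 349 counts in ob, 4 in NASH, 1473 in db and 47 in wild-type. Retsat, the retinol saturase gene, had 476 counts in ob, 2 in NASH, 1411 in db and 81 in wild-type, and was 45.8-fold lower in NASH (12.3 to 384.5).

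Promoter sequence was examined because PPAR-alpha, with its partner RXR, binds direct repeats of AGGTCA spaced by a single base. RefSeq sequence (GRCm38.p6, from 250 bases before to 50 after a start) was matched by symbol for 27 of the 33 genes, with 29 promoters. The repeat, a pair of AGGTCA units with any base between, searched on both strands, was found in 0 of the 29 and in 0.0396% of 32851 promoters of the same length. A looser form, with AGGNCA (N for any base) as each unit, was in 0 of the 29 and in 0.381% of all. With shares this low, 0 of 29 cannot tell these promoters from others. The unit AGGTCA alone was in 9 of the 29 (31.0%) and in 16.3% of all promoters. It lay in the promoters of Acadm, Acadvl, Acot12, Acot3, Acot4, Echs1, Scp2 and Slc27a2. These matches describe the letters only. The RefSeq starts of Slc27a2, Acaa1a, Scp2, Acot12 and Echs1 lie inside the deposited spans of these genes. For Slc27a2, Acaa1a and Scp2 the sequence printed below also lies wholly inside the span, so it stands before an internal start. The 5 matches that lie far enough before a start to be shown with their surroundings follow as 30-base windows on the gene's strand, with the unit or its reverse complement in capitals.
Slc27a2, chr2:126552792-126552821, plus strand: gcaccacgccttTGACCTtttcaacgtggg
Scp2, chr4:108118639-108118668, minus strand: gtctaacacagtAGGTCAaaagaacccata
Acadvl, chr11:70015498-70015527, minus strand: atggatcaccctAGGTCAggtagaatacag
Echs1, chr7:140116487-140116516, minus strand: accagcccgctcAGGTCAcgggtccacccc
Acot12, chr13:91741399-91741428, plus strand: ctcgtaggacccTGACCTctcacctcctaa

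The 250 bases before the start are printed for Slc27a2, the gene with the most counts, for Acsl5, which was low with it in NASH, and for Acaa1a, which stood out in ob, with AGGTCA or its reverse complement in capitals.
Slc27a2, chr2:126552774-126553023, plus strand: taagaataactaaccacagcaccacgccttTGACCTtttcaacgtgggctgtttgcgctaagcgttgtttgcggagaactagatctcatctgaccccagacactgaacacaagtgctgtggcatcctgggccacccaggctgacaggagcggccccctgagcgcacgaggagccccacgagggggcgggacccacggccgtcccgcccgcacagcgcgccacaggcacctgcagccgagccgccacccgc
Acsl5, chr19:55253119-55253368, plus strand: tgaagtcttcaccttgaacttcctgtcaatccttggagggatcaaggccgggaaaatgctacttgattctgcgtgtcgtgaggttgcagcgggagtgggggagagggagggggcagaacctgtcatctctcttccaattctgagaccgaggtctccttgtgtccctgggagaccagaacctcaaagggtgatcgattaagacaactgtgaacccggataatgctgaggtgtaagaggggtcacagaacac
Acaa1a, chr9:119341044-119341293, plus strand: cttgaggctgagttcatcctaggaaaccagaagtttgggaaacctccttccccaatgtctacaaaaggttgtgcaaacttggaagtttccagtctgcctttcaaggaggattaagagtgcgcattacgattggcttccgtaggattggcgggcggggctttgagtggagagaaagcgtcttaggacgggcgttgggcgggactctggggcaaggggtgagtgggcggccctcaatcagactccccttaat
The capitals appear once, in Slc27a2, and not in the other 2 windows. GC content was 64.0% in the Slc27a2 window, 52.8% in that of Acsl5 and 53.6% in that of Acaa1a.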

How the data were processed

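Per the labels' protocols, a miRNeasy kit yielded total RNA, and NEBNext Ultra Directional libraries, which keep the strand, followed ribosomal RNA depletion. The submitters' processing notes name bcl2fastq 2.20, Trimmomatic 0.32, TopHat2 2.1.1, Bowtie2 2.3.2 and mm10. The sources do not name the counting program, whether it used strand or how it shared multi-mapping reads, so reads of overlapping or near-identical genes cannot be told apart. Per the file headers, the authors deposited raw read counts, which by their values are expected counts with fractions, and TMM-normalized log2 values. By their values the deposited log2 columns are the log2 raw count plus 1 constant per library, with values under 0 set to 0, and served only as an alternative scaling.

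After rounding the expected counts, the 5347 features that reached 10 counts in any library were tested, and TMM factors came from edgeR 4.0.16 in R 4.3.3. A feature was called at a 2-fold difference of log2(CPM + 1). Ratios are of scaled counts, with exact 95% intervals (Clopper-Pearson) and, against 0 counts, a floor of 3 counts per library. The interval routine was tested on simulated data. Python 3.11.15 was used for the rest. Exon lengths, and transcripts searched for shared 50-base words, came from GENCODE M21.

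Every gene on the list is named. Values with ratios were planned for genes with at least 10 counts and a 2-fold difference and for the 5 most abundant, and up to 3 genes per further list and comparison with at least 20 counts. The genes and lists were chosen with earlier results of these data known. Alternatives were other scalings (plain totals, DESeq2 1.42.0 size factors, protein-coding totals, the submitters' scaling), no filter, a pseudocount of 5 CPM, and leaving out abundant genes or those of more than 1 location.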

Additional observations from a re-analysis of the deposited data

How the results depend on the processing

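No library could be left out, since each group has 1, and no paired analysis was possible because no group has a second library to pair. Of 89 values recomputed, 46 stayed within their counting interval or within 1.5 times of their count, 43 moved and 0 reversed. Gene counts and shares have no direction to reverse, so this 0 covers only sums against wild-type. Sums for db against ob were not among the 89. There the mitochondrial sum without Acsl5 went from 1.37 (1.19 to 1.58) to 0.71 (0.615 to 0.818) with protein-coding totals. The matrix and electron transfer sum also changed sides, to 0.774 (0.655 to 0.913). Both stayed above equality with DESeq2 size factors and the submitters' scaling. The alternative that leaves out Slc27a2, Acsl5 and Scp2 together was chosen after seeing the data. Scaling moved all features: over the 5 scalings the median log2 difference of all features tested ran from 0.28 to 1.41 for ob, -0.14 to 0.28 for NASH and 0.02 to 0.62 for db, each against wild-type, and from -1.02 to 0.07 for db against ob. The median of the 28 genes minus that of all features ran from 0.48 to 0.53, -0.08 to -0.03, 0.52 to 0.59 and 0.36 to 0.48 in the same order.

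With plain library totals, the ratio to wild-type of the mitochondrial sum was 3.36 for ob, 0.813 for NASH and 3 for db, and that of the peroxisomal sum 3.74, 0.498 and 6.15. With protein-coding totals, the mitochondrial sum was 2.76 in ob and 0.918 in NASH, and the peroxisomal sum 3.08 and 0.561. With the submitters' scaling, the mitochondrial sum was 1.99 in ob and 2.79 in db, and the peroxisomal sum 2.22 and 5.71. Without Acsl5 the mitochondrial sum was 1.15 for ob, 0.876 for NASH and 1.57 for db, and without Slc27a2 the peroxisomal sum was 0.830 in NASH and 1.81 in db.

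Counts of genes moved as follows. In ob, 0 were lower with plain totals or protein-coding totals and 2 with DESeq2 size factors. In NASH, 7 were higher with plain totals, 8 with protein-coding totals, 7 with no filter and 2 with a pseudocount of 5 CPM. In db, 17 were higher with plain totals, and 0 were lower with plain totals or the submitters' scaling. In db against ob, 1 was higher with plain totals, 0 with protein-coding totals and 1 with a pseudocount of 5 CPM, and 4 were lower with plain totals and 10 with protein-coding totals.

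The peroxisomal share without Acsl5 and Slc27a2 was 57.8% in ob, 48.3% in db and 44.8% in wild-type. Without Crat, Eci2, Scp2 and Slc27a2, but with Acsl5 kept, it was 25.5% in ob, 17.9% in NASH, 11.8% in db and 11.8% in wild-type. In both cases ob rather than db was highest. Among single genes, Scp2 in NASH ran from 0.823 to 1.24 times its wild-type level and Acsl5 in db from 0.619 to 1.44 times its ob level over the scalings. Depth limits low genes such as the matrix enzymes, with 0 to 14 counts each in wild-type.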
